A study of Drosophila melanogaster with 4 samples.

Results

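The loci 38C, 20A and flamenco of Drosophila melanogaster give rise to piRNAs, and their H3K9me3 chromatin was examined here with the sequence around them. A stretch of 190 kb of chromosome arm 2L held 38C with its flanks, and a stretch of 310 kb of the X chromosome held 20A and flamenco with theirs. The stretches are defined by position, and the rule uses no measured value. They were cut into 500 windows of 1 kb, of 139706 such windows over 13 assembled sequences. On FlyBase release 5, 38C ran on 2L from 20148259 to 20227581 (79.3 kb), 20A on X from 21392175 to 21431907 (39.7 kb) and flamenco on X from 21505666 to 21684449 (178.8 kb).

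Nuclei came from wild-type Oregon-R (Oregon-R-modENCODE) animals at the third larval instar, and this strain, stage and genotype were shared by the immunoprecipitated and the input libraries. Chromatin was immunoprecipitated in 2 replicates with an antibody against trimethylated lysine 9 of histone H3 (H3K9me3), of a lot the labels call new, and each replicate had an input library as its background. Per the labels' protocols, tissues were homogenised, and no isolation of an organ or cell type is described, so the values are averages over the cells of larvae. Each ChIP replicate had a list of clusters, stretches that the authors called significantly enriched, and a further list combined the replicates. No list of an input library was analysed here.

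piRNAs are small RNAs that guide proteins of the Piwi family to transposon transcripts and, in the nucleus, to transposon copies, where H3K9me3 is laid down. Their precursors are transcribed from long loci filled with fragments of transposons, many of them near the border of centromeric heterochromatin. In the ovary 38C is transcribed from both strands in germline cells, and such loci are bound by Rhino, a germline relative of heterochromatin protein HP1 that recognises H3K9me3. Flamenco and 20A are transcribed from a single strand. Flamenco acts in the somatic follicle cells of the ovary, where it silences retrotransposons such as gypsy, ZAM and Idefix.

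No read totals come with the lists used here, so their depth is unknown. The replicate lists held 3258 and 3287 clusters and the combined list 4060. Of these, 35, 32 and 39 lay in or reached into the stretches. The labels do not say whether the replicates came from separate animals, so every SD below is the spread between 2 samples, which may be technical. With 1 group of 2 samples no test between groups exists, and no p-value was computed. Differences between regions were taken within each replicate and set against that spread.

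H3K9me3 clusters covered most of 38C and of flamenco and the smaller share of 20A. In replicate 1 clusters covered 77.4% of 38C and in replicate 2 they covered 85.2%, a mean of 81.3% ± 5.50 (SD, n = 2). Flamenco was covered at 69.5% and 75.2%, a mean of 72.3% ± 4.02 (SD, n = 2). The 20A locus was covered at 21.7% and 32.6%, a mean of 27.2% ± 7.72 (SD, n = 2). For comparison, the heterochromatic scaffolds were covered at 78.9% and 81.2% and chromosome 4 at 90.9% and 94.5%. The proximal 2 Mb of 2L was covered at 45.7% and 49.5%. Coverage as high as that of 38C and flamenco was thus not particular to these loci. Both replicates gave the same order of the 3 loci. 38C exceeded flamenco by 8.96 percentage points ± 1.48, and flamenco exceeded 20A by 45.2 percentage points ± 3.70 (SD of the within-replicate differences, n = 2), each more than the spread. The order of 38C and flamenco depended on the score. With only clusters at or above the median score of their list, 38C minus flamenco was -23.6 percentage points in replicate 1 and -0.536 in replicate 2.

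The combined list covered 91.3% of 38C, 84.4% of flamenco and 51.7% of 20A. It draws on the libraries of the replicates and adds no independent measurement. The value for 20A was 1.9 times the replicate mean, whereas the values for 38C and flamenco were higher by a smaller factor.

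**Figure D1:**
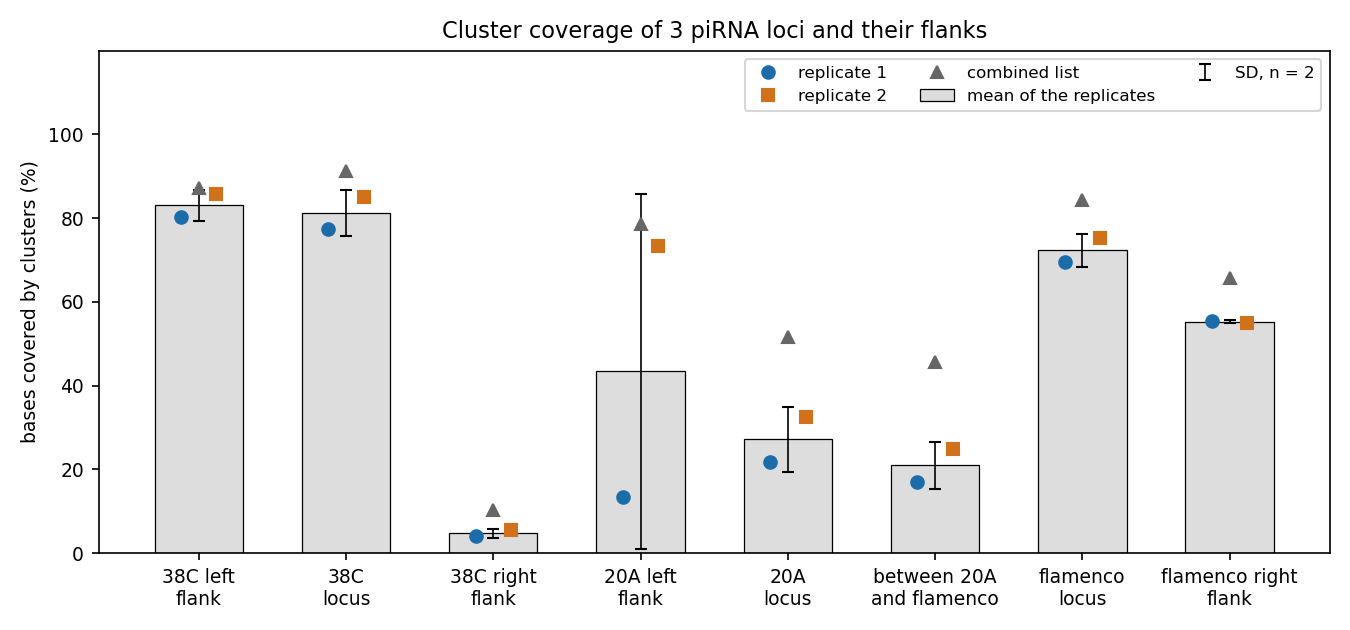
Percent of bases covered by H3K9me3 clusters in 8 regions along the 2L and X stretches. Bars are means of the 2 replicates with their SD, and symbols show each list. The 38C locus and its left flank stand near 80% and the right flank near 5%. The left flank of 20A has the widest spread of the 8 regions, 13.5% against 73.4%.

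Counted by window, 60 of the 80 windows centred in 38C were at least 50 percent covered in both replicates. The same held for 1.78% of the other windows of 2L outside its centromere-proximal 2 Mb, where 38C also lies. In flamenco 124 of 178 windows were called in both replicates and in 20A 9 of 40 were, against 11.4% of the other windows in the proximal 2 Mb of X, which holds both loci. Over all 13 sequences 15.4% of windows were called in both replicates. Thus 75.0% of the windows of 38C, 69.7% of those of flamenco and 22.5% of those of 20A were called, the last nearest to the share of its surroundings. In the combined list 74 of 80 windows were called in 38C, against 4.6% on the rest of 2L outside its proximal 2 Mb. In flamenco 150 of 178 and in 20A 21 of 40 were, against 23.3% in the rest of the proximal 2 Mb of X.

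Most windows that were called in either replicate of 38C and flamenco were called in both. Within 38C, 3 windows were called in replicate 1 alone, 9 in replicate 2 alone and 8 in neither. Within flamenco the counts were 1, 12 and 41. In 20A, 5 windows were called in replicate 2 alone, 26 in neither and 0 in replicate 1 alone. The Jaccard index is the bases shared by the replicates divided by the bases found in at least 1 of them. It was 0.846 in 38C, 0.878 in flamenco and 0.665 in 20A. Neither this index nor the counts in a single replicate were computed over the whole lists. Agreement at this level is therefore not shown to be particular to the loci.

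At 38C the covered domain was longer than the locus and extended to its left. The left flank, 58.3 kb long, was covered at 80.4% and 85.7%, close to the locus itself (77.4% and 85.2%). The difference, locus minus left flank, was -1.75 percentage points ± 1.77 (SD, n = 2), no larger than the spread. The right flank, 52.4 kb long and on the centromere side, was covered at 4.02% and 5.48%. The locus exceeded it by 76.5 percentage points ± 4.46 (SD, n = 2), many times the spread.

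**Figure D2:**
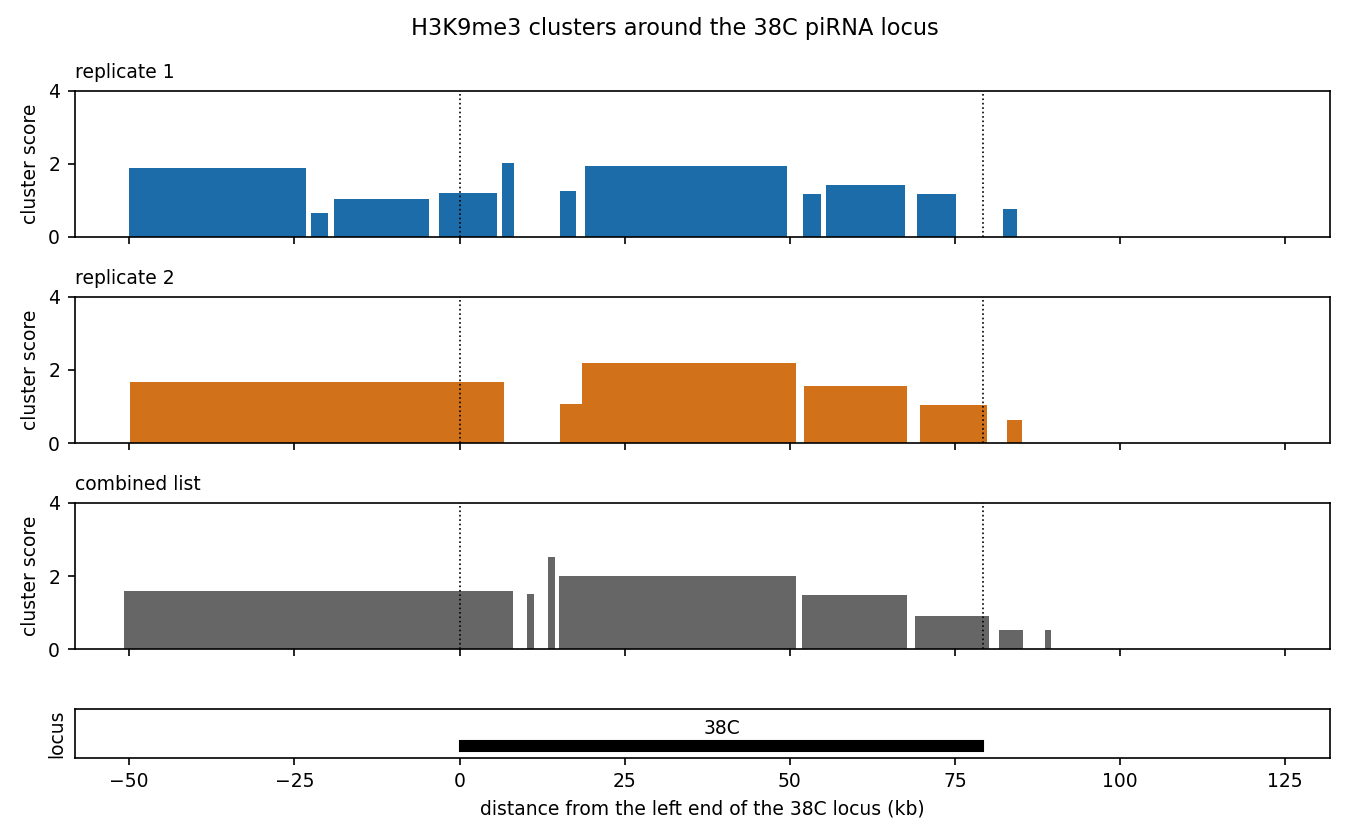
Clusters of each list along the stretch around 38C. The horizontal axis is the distance in kb from the left end of the locus, bar width is cluster width, bar height is the deposited score, and dotted lines mark the borders of the locus. In the 3 lists the clusters begin about 50 kb left of the locus and stop within 10.3 kb of its right end.

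When clusters less than 10 kb apart were joined, the domain at 38C was 134.3 kb long in replicate 1 and 135.1 kb in replicate 2. It began at 20098282 and 20098343, a difference of 61 bp between the replicates, which lies 50.0 kb and 49.9 kb left of the locus. It ended at 20232623 and 20233437, a difference of 814 bp, 5.04 kb and 5.86 kb right of the locus. The combined list placed the left edge at 20097399 and the right edge at 20237838. To the right no further cluster followed for 194.2 kb in replicate 1, 193.3 kb in replicate 2 and 71.3 kb in the combined list. To the left the next cluster, about 2.2 kb wide in both replicates, ended 11.3 kb and 11.4 kb before the domain.

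Some clusters of the 38C domain were the widest of 2L outside its proximal 2 Mb. Others ranked as low as 130 of 205 in replicate 1 and 76 of 216 in replicate 2. In replicate 1 the widest cluster of 2L outside its proximal 2 Mb, of 205, ran from 20167225 to 20197862 inside the locus (30.6 kb, score 1.93). The next 2 in width lay in the left flank, from 20098282 to 20125043 (26.8 kb, score 1.88) and from 20129324 to 20143707 (14.4 kb, score 1.03). Replicate 2 held 216 such clusters, and its 3 widest also lay here. The first of them crossed the left border of the locus, from 20098343 to 20154949 (56.6 kb, score 1.67). The other 2 ran from 20166817 to 20199188 (32.4 kb, score 2.18) and from 20200457 to 20215993 (15.5 kb, score 1.55). Where replicate 2 had the single 56.6 kb cluster, replicate 1 had 4 clusters with breaks between them and another at its right end.

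The combined list had its widest cluster of 2L outside the proximal 2 Mb across the same border, from 20097399 to 20156401 (59.0 kb, score 1.59). Its second widest, from 20163308 to 20199225 (35.9 kb, score 1.99), lay within 38C. Replicate 1 covered 91.8% of the first and replicate 2 95.9%.

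The left border of 38C lay inside a cluster in all 3 lists. In replicate 1 that cluster ran from 20145106 to 20153887 (8.78 kb, score 1.21). The right border lay inside a cluster in replicate 2, from 20217903 to 20228096 (10.2 kb, score 1.05), which passed the border by 0.515 kb. The corresponding cluster of the combined list, from 20217209 to 20228395 (11.2 kb, score 0.913), passed it by 0.814 kb. In replicate 1 the cluster on the left stopped 4.16 kb before that border and the next began 2.94 kb after it. The covering of 38C thus ended within about 4 kb of its annotated right end in each list, apart from narrow clusters further right, 1 in each replicate and 2 in the combined list. The cluster was 2.11 kb wide with a score of 0.757 in replicate 1 and 2.36 kb wide with a score of 0.633 in replicate 2. The combined list had clusters of 3.63 kb and 1.02 kb there, with scores of 0.535 and 0.528.

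The widest gap inside 38C was shared by the replicates. It ran from 20156556 to 20163433 in replicate 1 (6.88 kb) and from 20154950 to 20163444 in replicate 2 (8.50 kb). The combined list placed 2 narrow clusters there. They ran from 20158493 to 20159606 (1114 bp, score 1.51) and from 20161705 to 20162714 (1010 bp, score 2.53), which was the highest score of that list in 38C. Both are narrower than 1301 bp, the narrowest cluster of replicate 1, and 1302 bp, that of replicate 2. The part of differing width limits in such clusters was not tested. With them in place, the widest gap of the combined list in 38C was 2.10 kb.

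Coverage was most complete in the middle of 38C. Among its full bins of 10 kb, those from 20 to 50 kb were covered at 96.0% or more in both replicates, with scores of 1.93 in replicate 1 and 2.18 in replicate 2. The bin from 10 to 20 kb, which holds the gap, was covered at 35.1% and 47.3%. Of the 7 full bins, 6 were at least 50 percent covered in both replicates, against 0.528% of 10 kb bins on 2L outside its proximal 2 Mb. The highest-scoring cluster of the locus in replicate 1, from 20154727 to 20156555 (1.83 kb, score 2.01), was covered at 12.2% by replicate 2. In replicate 2 the widest cluster lying wholly inside the locus, at 32.4 kb, was also the highest in score.

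Scores are given as deposited on a scale that the file headers do not name, and regions were compared within a list. Means and SDs of scores over the replicates take the 2 lists to share a scale, which was not checked. Averaged over covered bases, the score of 38C was 1.63 in replicate 1 and 1.77 in replicate 2, a mean of 1.70 ± 0.10 (SD, n = 2). Clusters on the rest of 2L outside the proximal 2 Mb averaged 0.859 and 0.875. The score at 38C was higher than that in both replicates, by more than the spread. It lay below that of the proximal 2 Mb of 2L, which averaged 2.09 and 2.16. The left flank had a mean score of 1.59 ± 0.12, and the locus exceeded it by 0.11 ± 0.02 within the replicates (SD, n = 2). The right flank had 0.733 ± 0.035 (SD, n = 2) over its few covered bases.

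Flamenco combined a broken left part with a nearly continuous right part. Cut in the middle, its left 89.4 kb were covered at 48.8% and 58.2% and its right 89.4 kb at 90.2% and 92.1%. The right part exceeded the left by 37.7 percentage points ± 5.29 (SD, n = 2), several times the spread. In 3 equal parts of 59.6 kb the coverage was 51.2% ± 6.42, 71.2% ± 4.81 and 94.5% ± 0.827 from left to right (SD, n = 2). The Jaccard index of the replicates was 0.709, 0.879 and 0.984 in the same order. These divisions were chosen after the clusters were seen.

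**Figure D3:**
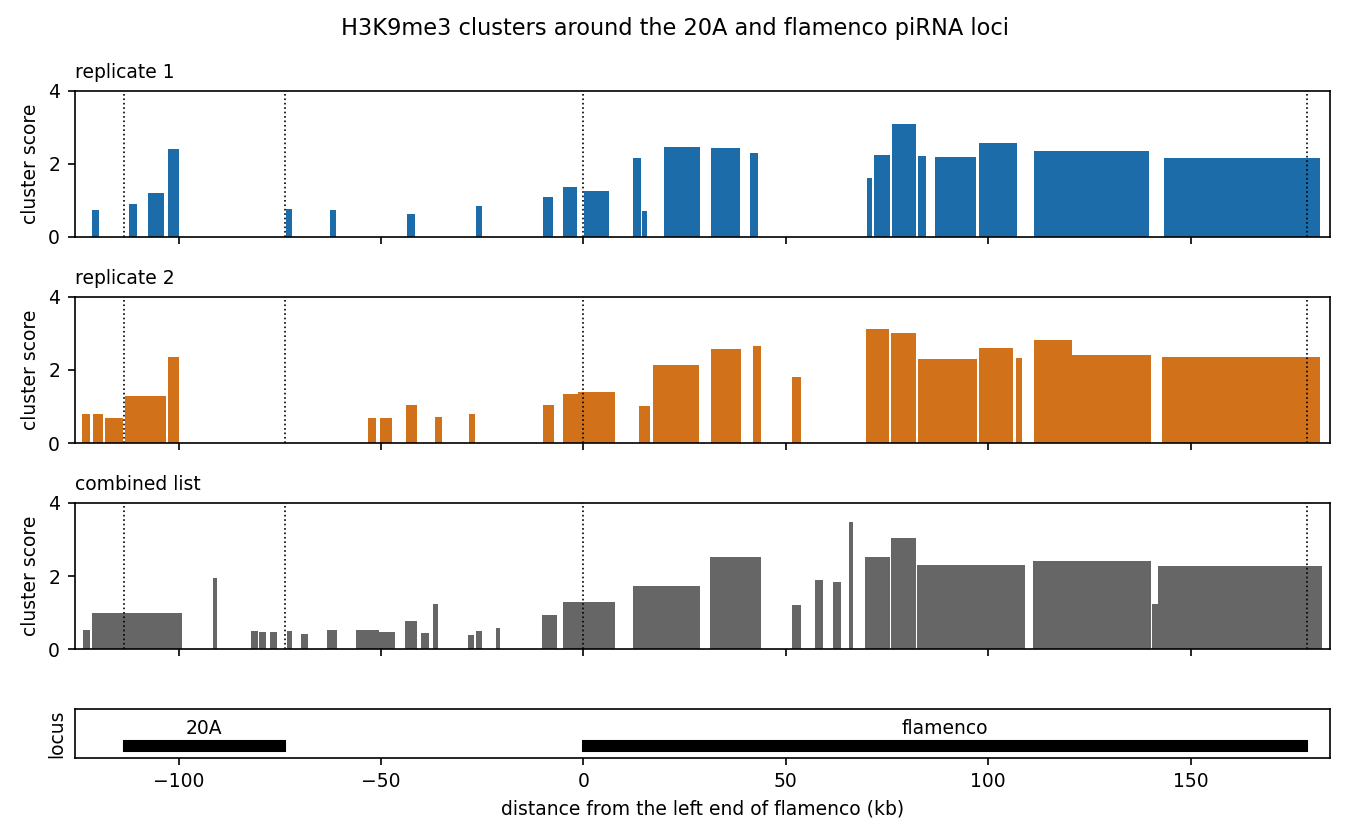
Clusters of each list along the stretch with 20A and flamenco. The horizontal axis is the distance in kb from the left end of flamenco, bar width is cluster width, bar height is the deposited score, and dotted lines mark the borders of the loci. Most clusters of flamenco right of 70 kb stand at scores between 2 and 3.10, whereas those between the loci are narrow and mostly below 1.

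The last cluster of flamenco was the widest in the locus in each list. It ran from 21649002 to 21687529 in replicate 1 (38.5 kb, score 2.17) and from 21648593 to 21687502 in replicate 2 (38.9 kb, score 2.36). Among clusters of the whole X it ranked 2 in width of 621 in replicate 1 and 1 of 740 in replicate 2. The combined list had it from 21647552 to 21688091 (40.5 kb, score 2.28), ranked 2 of 1088. It crossed the right border of flamenco in all 3 lists and passed it by 3.08 kb, 3.05 kb and 3.64 kb. The right edges of the replicates differed by 27 bp. Beyond that edge no cluster followed for 71.5 kb in replicate 1, 72.7 kb in replicate 2 and 70.4 kb in the combined list.

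To the left of it lay a cluster of 28.3 kb in replicate 1, from 21617064 to 21645395 (score 2.34), which ranked 3 in width on X. Replicate 2 had 2 clusters over the same sequence, from 21616907 to 21626277 (9.37 kb, score 2.83) and from 21626388 to 21645793 (19.4 kb, score 2.40), which are 110 bp apart. Breaks between wide clusters of one list were therefore bridged in another, so that the counts of clusters in flamenco, 14 in each replicate and 13 in the combined list, depend on where breaks fall.

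The highest scores in flamenco in the replicates stood between about 70 and 82 kb from its left end. In replicate 1 the cluster from 21581761 to 21587716 (5.96 kb) had a score of 3.08, above 92.3% of the clusters of that list. In replicate 2 the neighbouring clusters from 21575366 to 21581198 (5.83 kb) and from 21581625 to 21587743 (6.12 kb) had scores of 3.10 and 3.00, above 92.5% and 91.4% of that list. The combined list gave 3.03 to its cluster from 21581632 to 21587865. Its highest score in flamenco, 3.47, belonged to a cluster 1001 bp wide, from 21571280 to 21572280, in which neither replicate had a covered base. That list held a cluster of the same width and score on 2L outside the stretch, from 20309145 to 20310145. What this repeated value rests on was not tested.

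The left end of flamenco had lower scores. Its first cluster ran from 21505792 to 21512058 in replicate 1 (6.27 kb, score 1.26). In replicate 2 it ran from 21504262 to 21513344 (9.08 kb, score 1.39) and crossed the border by 1.40 kb. The combined list had a cluster from 21500558 to 21513497 (12.9 kb, score 1.29) that began 5.11 kb before the border. Just outside the border, replicate 1 had a cluster from 21500558 to 21504113 (score 1.36) and replicate 2 one from 21500604 to 21504213 (score 1.35). Covered sequence therefore began before the annotated start of flamenco. With clusters less than 10 kb apart joined, a domain began at 21495599 and 21495700, about 10 kb to the left, with 101 bp between the replicates. It ended inside flamenco, at 21548821 in replicate 1 and 21559292 in replicate 2. Another domain, of 111.8 kb and 112.1 kb, covered the right part. The combined list had a single domain of 192.5 kb.

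The gene table used for names, on release 6, lists flam as a long non-coding RNA gene of X, with the non-coding gene CR44712 and then DIP1 on its left side. DIP1 encodes a protein with double-stranded RNA binding domains. On the right the table lists the protein-coding gene CG40813. The table's positions belong to another release than the clusters, so no cluster was assigned to an exon, intron or promoter of these genes.

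The widest gap of flamenco in the replicates lay left of its midpoint. In replicate 1 no base was covered from 21548822 to 21575712, a gap of 26.9 kb that began 43.2 kb from the left end. Replicate 2 had a cluster of 2.00 kb with a score of 1.80 in this gap, from 21557290 to 21559292, and its widest gap ran from 21559293 to 21575365 (16.1 kb). That cluster was the only one of replicate 2 in flamenco that did not overlap replicate 1. The combined list placed 4 clusters wholly in the gap of replicate 1, from 1001 to 2149 bp wide, and its widest gap was 7.54 kb, from 21549607 to 21557142. Its gap overlaps the second widest gap of replicate 2, which was 7.80 kb.

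Of the 17 full bins of 10 kb in flamenco, 13 were at least 50 percent covered in both replicates, against 7.74% of such bins in the rest of the proximal 2 Mb of X. The bins from 40 to 70 kb were covered at 20.0%, 0% and 0% in replicate 1 and at 20.1%, 20.0% and 3.00% in replicate 2. From 70 kb to 170 kb each bin was covered at 66.6% or more in both replicates. The bins from 150 to 170 kb were fully covered in both.

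**Figure D4:**
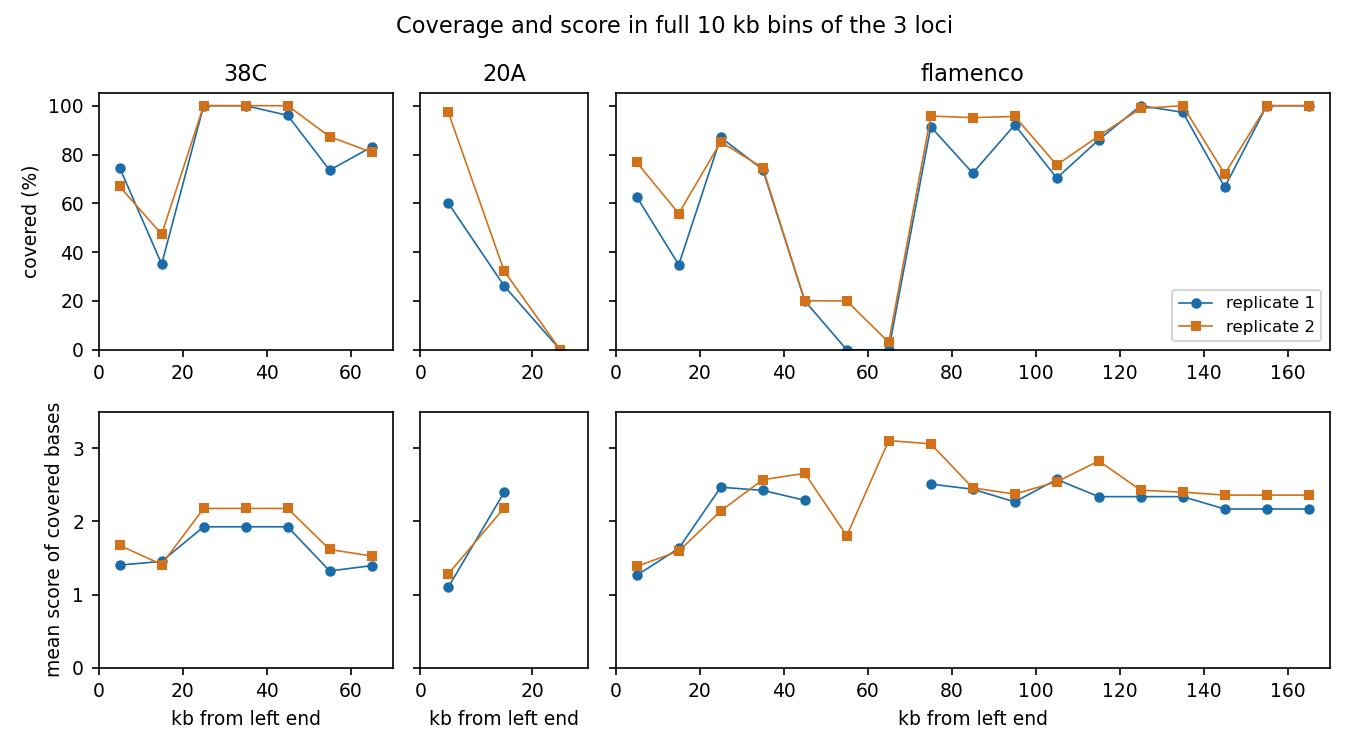
Percent of bases covered (top) and mean score of covered bases (bottom) in full 10 kb bins, counted from the left end of each locus, for the 2 replicates. A point for the score is missing where no base was covered. Coverage in flamenco falls to between 0% and 20.1% from 40 to 70 kb in both replicates and stays above 66% to its right. In 20A it falls from left to right to 0%.

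Flamenco had the highest score of the 3 loci. Over its covered bases the score averaged 2.26 in replicate 1 and 2.37 in replicate 2, a mean of 2.31 ± 0.08 (SD, n = 2). It exceeded 38C by 0.62 ± 0.01 and 20A by 0.82 ± 0.07 within the replicates (SD, n = 2), more than the spread in each case. The heterochromatic scaffolds averaged 2.31 and 2.46, and the rest of the proximal 2 Mb of X averaged 1.45 and 1.31. In flamenco 11 of 14 clusters of replicate 1 and 12 of 14 of replicate 2 had at least the median score of their list. In 38C 2 of 7 and 3 of 5 had it, and in 20A 1 of 3 and 1 of 2.

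The surroundings of flamenco were less covered than the locus. The sequence between 20A and flamenco, 73.8 kb long, was covered at 17.0% and 25.0%, and flamenco exceeded it by 51.3 percentage points ± 1.60 (SD, n = 2). The rest of the proximal 2 Mb of X was covered at 12.5% and 16.3%. Over both flanks together, flamenco minus flank was 48.9 percentage points ± 1.18. With the 10 kb next to each border as the flank (less on the right, where the stretch ends) the difference was 8.38 ± 2.62 (SD, n = 2). Clusters pass the right border in all 3 lists and the left border in replicate 2 and the combined list.

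In the replicates 20A was covered at its left end and had no cluster over most of its length. In replicate 1 it held 3 clusters and in replicate 2 it held 2, all between 21392435 and 21405705. The left 19.9 kb were covered at 43.4% and 65.2%, and the right 19.9 kb at 0% in both replicates. The last covered base was 21405671 in replicate 1 and 21405705 in replicate 2, a difference of 34 bp. From there to the right end of the locus the replicates had gaps of 26.2 kb each. Of the 3 full bins of 10 kb, 1 was at least 50 percent covered in both replicates, against 7.74% of such bins in the rest of the proximal 2 Mb of X.

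The cluster at that right edge was the highest in score of the locus. It ran from 21403058 to 21405671 in replicate 1 (2.61 kb, score 2.40, above 74.6% of the list). In replicate 2 it ran from 21402960 to 21405705 (2.75 kb, score 2.34, above 71.6% of the list). The widest cluster of 20A was 4.05 kb in replicate 1, from 21398073 to 21402119 (score 1.20). In replicate 2 it was 10.2 kb, from 21392435 to 21402649 (score 1.28). The remaining cluster of replicate 1, from 21393480 to 21395443, had a score of 0.889. The mean score was 1.50 ± 0.01 (SD, n = 2), over 8625 covered bases in replicate 1 and 12961 in replicate 2. The combined list gave 20A a mean score of 0.911 and its left flank 0.909. In the replicates that flank had 0.735 and 0.743. With clusters at or above the median score of their list alone, coverage of 20A was 6.75% ± 0.235 (SD, n = 2), and the cluster at the right edge was what remained in each replicate.

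The combined list joined this part of 20A with its left flank into a cluster from 21384299 to 21406560 (22.3 kb, score 0.993). It also placed 4 clusters in the right part, where the replicates had none. One, from 21414085 to 21415099, was 1015 bp wide with a score of 1.94. The other 3 lay between 21423592 and 21429978, measured from 1693 to 1744 bp and had scores from 0.472 to 0.487. No base of these 4 clusters was covered in either replicate. The widest gap of the combined list in 20A was 8.49 kb, from 21415100 to 21423591.

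The borders of 20A did not stand out in the replicates. The left border lay in a gap in both, 1.31 kb before the next cluster in replicate 1 and 0.260 kb before it in replicate 2. The left flank, 12.2 kb long, had 13.5% of its bases covered in replicate 1 and 73.4% in replicate 2. Replicate 2 had 3 clusters there with scores from 0.687 to 0.807, and 2 of them, the wider of 4.42 kb, did not overlap replicate 1. The right border lay in a gap in all 3 lists. 20A minus its flanks was 2.97 percentage points ± 3.11 (SD, n = 2), less than the spread, and with flanks of 10 kb the sign turned, at -2.09 ± 12.2 (SD, n = 2).

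20A exceeded the sequence on its right in coverage and in score in both replicates. 20A was covered at 6.14 percentage points ± 2.10 more than the sequence between 20A and flamenco. Its score exceeded that of the covered bases there by 0.52 ± 0.01 (SD, n = 2). In the combined list the differences were 6.03 percentage points and a score of 0.206. Among the clusters in or reaching into that sequence the replicates agreed less than in the loci. In replicate 1, 3 of 6 overlapped replicate 2, in replicate 2, 4 of 8 overlapped replicate 1, and the Jaccard index was 0.351. The widest of the 8, from 21504262 to 21513344 (9.08 kb), crosses into flamenco and overlaps replicate 1 only there. The clusters without a counterpart had scores from 0.734 to 0.838 in replicate 1 and from 0.680 to 0.788 in replicate 2. One cluster of at least 5 kb lay wholly there in the combined list, from 21449566 to 21455103 (5.54 kb, score 0.515), and replicate 1 had no covered base in it.

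Across the 3 loci, each cluster of replicate 1 overlapped a cluster of replicate 2. All clusters of replicate 2 in 38C and 20A overlapped replicate 1, and 13 of 14 in flamenco did. Over all 13 sequences 90.5% of the clusters of replicate 1 and 78.5% of those of replicate 2 overlapped the other list. These counts rest on an overlap of 1 bp or more, and at 50 percent both ways the share for replicate 1 fell from 100% to 45.5% on the 2L stretch and from 87.5% to 62.5% on the X stretch. The combined list held 10 clusters in the loci that overlapped neither replicate, 2 of 6 in 38C, 4 of 5 in 20A and 4 of 13 in flamenco. These 10 were between 1001 and 2071 bp wide, and 4 of them were narrower than any cluster of replicate 1. The share of such clusters over the whole combined list was not computed, so the counts are not shown to be particular to the loci.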

How the data were processed

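The authors deposited cluster lists with a score for each cluster, 1 list per ChIP library and 1 for the replicate set. Per the file headers, the genome build is FlyBase release 5. Bowtie 0.12.7 appears in the submitters' processing notes, with no role stated. Not given in the sources used here are the cluster caller, its threshold, how reads matching repeats were handled and how the replicates were merged.

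Covered bases, 1 kb windows (called at 50 percent covered, assigned to a region by their midpoint), 10 kb bins, gaps and edges were computed from cluster positions with numpy 2.4.6 and pandas 2.3.3 under Python 3.11.15. The code was tested on simulated data, 20 lists with known coverage. Groups came from the sample titles. The 3 regions of depletion in the combined list lay outside both stretches and were left out. Named clusters were the widest and the highest-scoring of each list in each locus, those crossing a border, the widest gaps and flank clusters of at least 5 kb in the combined list. Others named were chosen after their values were seen. The stretches and the rule were chosen with earlier results of these data known. Alternatives covered score, width, list, flank, window and replicate.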

Additional observations from a re-analysis of the deposited data

How the results depend on the processing

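Of 63 alternatives over 14 results, 14 left a replicate out of a mean of 2, which always stays within 1 SD and says nothing about stability. Of the others, 23 kept the value within the replicate spread, or a count within 1.5 times, 24 moved it and 2 turned its sign. Some of the 23 could not have moved. For windows called in 38C and flamenco, calling at 1 covered base or in a single replicate can only raise the count. With 60 of 80 and 124 of 178 windows called in both replicates, such a rise stays within 1.5 times. Those outcomes were fixed too and say nothing about stability. The 5 alternatives for 38C minus flamenco were added after the data were seen.

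Keeping clusters at or above the median score of their list (1.75 and 1.43 in the replicates) gave coverages of 54.9% for 38C, 6.75% for 20A and 66.9% for flamenco. The order of 38C and flamenco turned, with a difference of -12.1 percentage points ± 16.3 (SD, n = 2) in place of 8.96. The differences from the flanks became 20.2, 6.75 and 63.1 percentage points, and the windows called in both replicates fell to 31 in 38C and 3 in 20A. The Jaccard index became 0.542 on the 2L stretch (0.871 with all clusters) and 0.879 on the X stretch (0.765 with all clusters). A score limit can lower coverage of a region but not raise it. The combined list gave coverages of 91.3%, 51.7% and 84.4%, differences of 40.4 percentage points for 38C and 37.3 for flamenco, 6.93 for 38C minus flamenco, and 21 windows in 20A. Clusters of at least 2000 bp gave differences of 6.97 for 20A and 52.7 for flamenco. Flanks of 10 kb gave 22.3 for 38C, -2.09 for 20A and 8.38 for flamenco. Windows of 20A called in 1 replicate ranged from 9 to 14. Counting overlap at 50 percent both ways lowered the share of replicate 1 clusters overlapped in replicate 2 from 100% to 45.5% on 2L and from 87.5% to 62.5% on X. The cause of these changes was not tested. No paired analysis was possible because the lists used cover ChIP samples alone and give no second group.

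With depth unknown and 2 replicates, uncovered sequence was not called enriched and is not shown to lack the mark. How reads matching repeats were handled is also unknown, and their part in the gaps of the loci was not tested.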
